A study of Zea mays with 3 samples.

Results

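The 5 hormone genes described here were followed in maize anthers on 12 arrays: a pair assigned to the synthesis of gibberellin GA12 (GRMZM2G059308 and dwarf3, GRMZM2G093195), a pair assigned to gibberellin inactivation (GRMZM2G022679 and GRMZM2G051619) and 1 assigned to brassinosteroid synthesis (GRMZM2G040397). They were taken by probe name from the hormone pathways of the study, and 6 of the 42034 transcript probes of the array represent these 5 of the 6833 gene models that were paired with a probe here. GRMZM2G059308 has a pair of probes and the other genes have 1 each.

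Gibberellins are growth hormones made from the diterpene ent-kaurene, which P450 enzymes oxidize to GA12, the precursor of all active forms. Gibberellin 2-oxidases and related enzymes inactivate the hormone, and GID1 receptors bind it and send the DELLA repressors of growth for degradation. Brassinosteroids are steroid hormones made by another set of P450 enzymes and reductases, and both hormones are known to act on stamen growth and on the tapetum, the cell layer that nourishes the pollen mother cells.

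Total RNA came from whole field-grown anthers of a Mu-active line, in which the Mutator transposons are active, and of a Mu-inactive line, in which they are silent, at lengths of 1.0, 1.5 and 2.0 mm, with no treatment. Each of the 4 arrays of a length carried RNA of both lines in its Cy3 and Cy5 channels, with the dyes swapped on 2 of them. The labels give neither the genotype beyond Mu activity nor whether the 4 arrays of a length hold separate plants, so the p-values measure the spread between these arrays, which may be technical in part. The 4 arrays of a length lay on 1 slide, and the 1.0 mm slide was read with another setting of the scanner software than the 1.5 and 2.0 mm slides, so length, slide and reading cannot be told apart.

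The direction of each line difference rests on the deposited ratios, named active against inactive, whose Pearson r across probes with the ratios used here was 0.991, 0.988 and 0.991 in order of length. The channel fields of the labels fit this direction, while the list of replicates in their description, read by array number, would turn the sign of every line difference. Probes of MuDR, the transposon that drives Mu activity, do not settle it. None of the 4 passed between the lines at any length after adjustment over all probes, though MUDRB and MUDR-TIRA were mostly brighter in Mu-active. The MUDRB probe was brighter in Mu-active on 12 of 12 arrays (unadjusted p = 0.00178, 0.0035 and 0.0668, adjusted p = 0.129, 0.179 and 0.453 by limma in order of length). MUDR-TIRA was brighter in Mu-active on 3, 4 and 4 of 4 arrays, with log2 ratios of 0.16, 0.49 and 0.95. At 2.0 mm its interval was 0.40 to 1.51 (unadjusted p = 0.0035, adjusted p = 0.136 by limma). MUDRA was brighter on 2 of 4 arrays at each length, with log2 ratios of 0.017, -0.0054 and 0.0048. MUDRA-21 was brighter on 2, 4 and 2 of 4 arrays. Signal was brightest at 1.0 mm, where the median spot of a channel, before normalization, was 1.49 to 3.15 times as bright as its mean negative control, against ratios of 1.23 to 1.45 on the 1.5 mm slide and of 1.21 to 1.88 on the 2.0 mm slide. Probe brightness depends on the oligo as well as on the transcript, so intensities are compared between arrays for 1 probe and never between probes.

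Of the 6 probes, 4 were bright in both lines at every length. Detection was set per channel: normalized intensity, in arbitrary linear units, had to exceed the 153 negative controls of the channel by 3 SD over their mean, and a probe that did so on 3 or more of the 4 arrays of a length is called ON there. These cutoffs lay between 78.7 and 90.4. One probe of GRMZM2G059308 (A_92_P020405) and the probes of GRMZM2G022679, GRMZM2G051619 and GRMZM2G040397 were above the cutoff in all 4 arrays of both lines at all 3 lengths. By the ON rule, 4 or 5 of the 6 probes were ON per line and length, against 27106 to 31804 of all 42034. Detection thus does not set the members apart from the other probes. None of the 72 member spots was saturated or carried an outlier mark. Since the samples are whole anthers, fewer cells that make a transcript and less transcript per cell cannot be told apart.

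**Figure D1:**
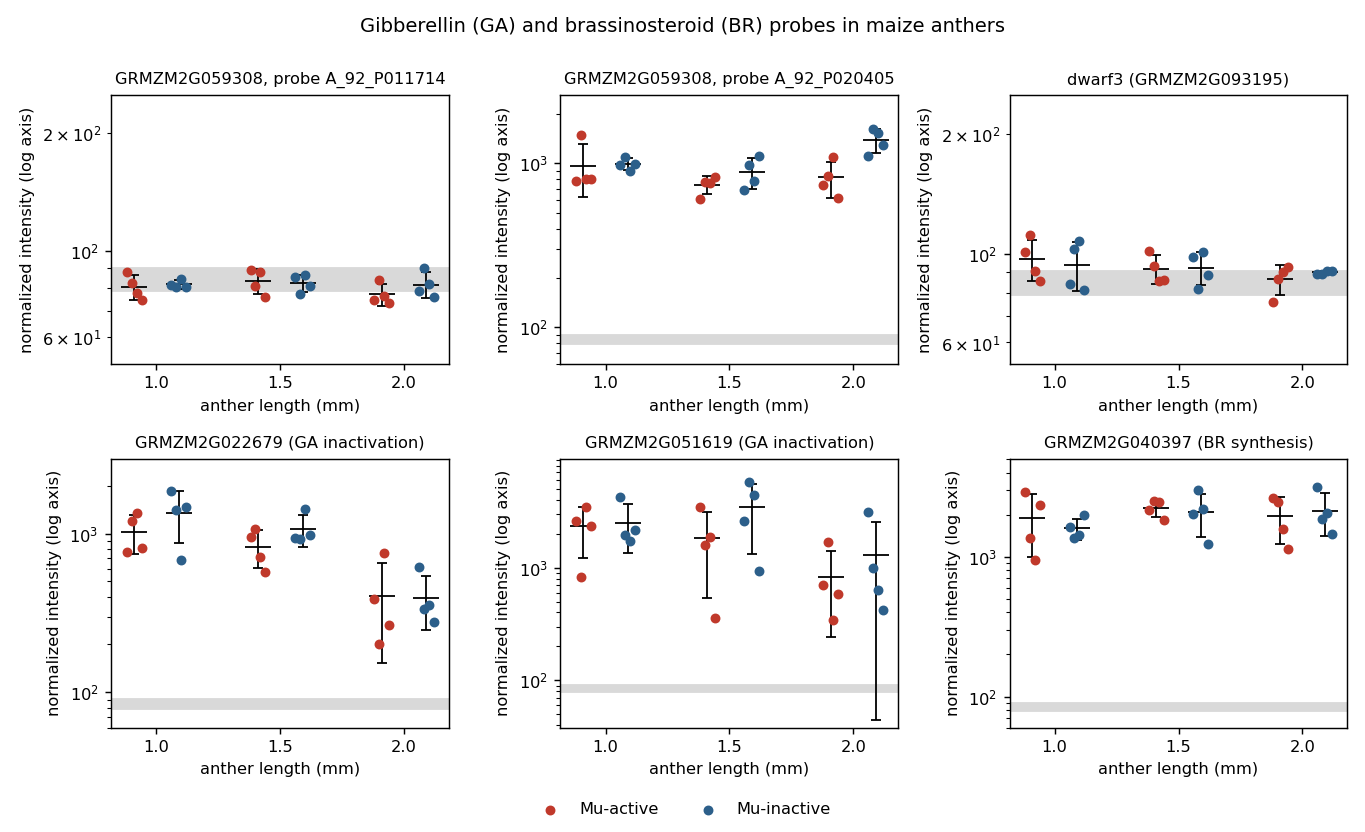
Normalized intensity (log axis, arbitrary units) of the 6 probes by anther length in mm, with Mu-active left of Mu-inactive. Points are the 4 arrays, the black line and bars are the mean ± SD, and the grey band is the range of detection cutoffs, 78.7 to 90.4, in or near which the dim probes of GRMZM2G059308 and dwarf3 lie.

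GRMZM2G059308 was the 1 member with a line difference that passed, at 2.0 mm. Its exact step toward GA12 is not given in the sources used here. At 1.0 mm, A_92_P020405 had intensities of 781.5, 1482, 808.3 and 798.6 in arrays 1 to 4 in Mu-active anthers, against 982.4, 1100, 902.3 and 988.4 in Mu-inactive anthers. At 1.5 mm, it had 607.4, 767.7, 757.9 and 827.2 in Mu-active anthers, against 683.6, 979.7, 785.7 and 1116 in Mu-inactive anthers. At both lengths the ranges of the lines overlapped, and at 1.0 mm the second Mu-active array stood far above the other 3.

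At 2.0 mm, the same probe had intensities of 740.1, 838.4, 1092 and 614.2 in Mu-active anthers, against 1113, 1630, 1528 and 1286 in Mu-inactive anthers. Here the ranges did not overlap, although the highest Mu-active and the lowest Mu-inactive array were close. The mean was 821 ± 203 in Mu-active and 1389 ± 234 in Mu-inactive anthers (SD, n = 4 each), a fitted fold of 0.585, and all 4 arrays had the lower value in the Mu-active channel.

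The line difference was tested with limma on the log2 ratio of Mu-active over Mu-inactive within each array, with adjustment over all 42034 probes. For A_92_P020405 it was -0.77 at 2.0 mm (SE 0.135, 95% interval -1.08 to -0.47, adjusted p = 0.0336 by limma). It was -0.09 at 1.0 mm (interval -0.39 to 0.21) and -0.25 at 1.5 mm (interval -0.55 to 0.05, adjusted p = 0.597 by limma), where all 4 arrays were also lower in Mu-active. The call at 2.0 mm was lost when any single 2.0 mm array was left out, with log2 ratios of -0.90 to -0.68 and limma adjusted p of 0.0518 to 0.162. It was also lost with the ratio of the scanner software (adjusted p = 0.0515 by limma) and when the 2.0 mm arrays were fitted alone (adjusted p = 0.164 by limma).

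Among the 6 probes, 0, 0 and 1 passed the limma test at 1.0, 1.5 and 2.0 mm, where 0.376%, 0.471% and 0.866% of all probes did. By the threshold of the study's methods, which asks for an absolute log2 ratio no smaller than 0.58 and an unadjusted p no larger than 0.05, the counts were again 0, 0 and 1, against 2.18%, 1.99% and 2.8% of all probes. At an unadjusted p under 0.05 alone they were 0, 0 and 1 as well. The median log2 ratio of the 6 probes was -0.06, -0.13 and -0.12 at the 3 lengths, while the medians of all probes lay between -0.0015 and 0.0015.

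**Figure D2:**
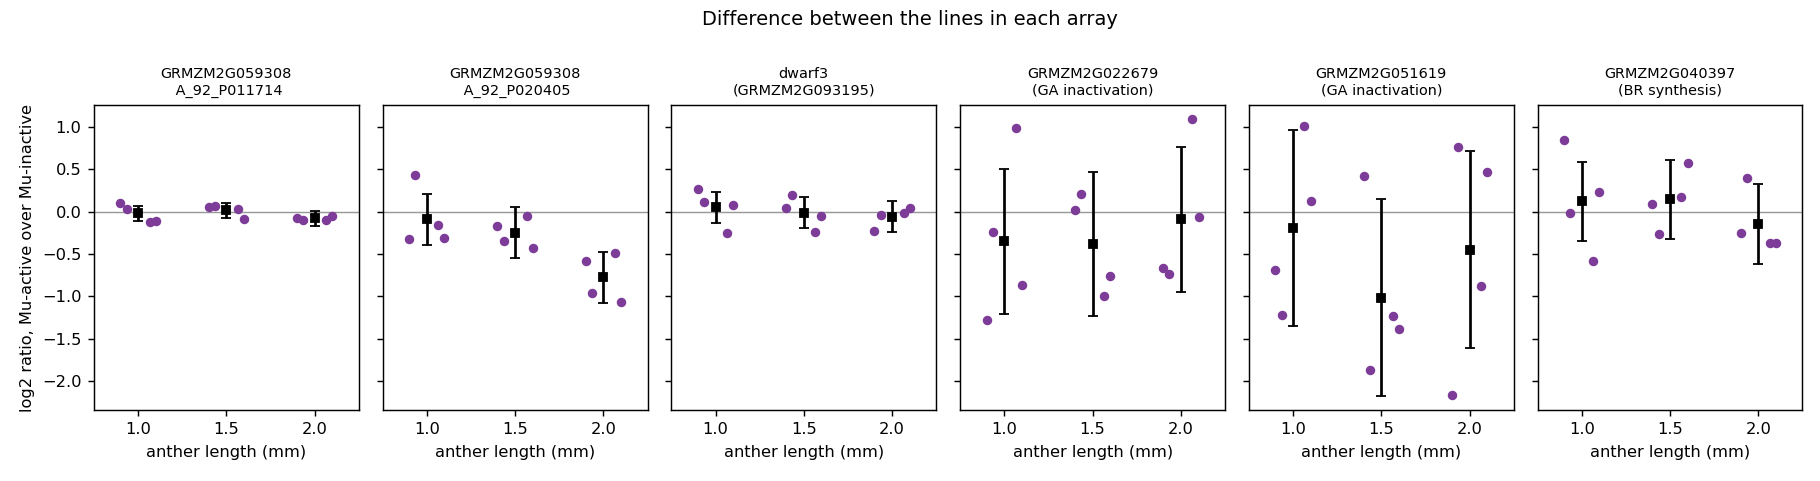
Log2 ratio of Mu-active over Mu-inactive anthers for the 6 probes at each length, with points for arrays 1 to 4 and squares with bars for the fitted mean and its 95% interval. A_92_P020405 of GRMZM2G059308 at 2.0 mm has an interval of -1.08 to -0.47, and the intervals of the other 5 probes include 0 at every length.

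The difference between the lines in this gene was also set against the other lengths. In the same limma fit, the log2 line difference of A_92_P020405 was lower at 2.0 than at 1.0 mm by a change of -0.68 (SE 0.191, interval -1.11 to -0.26, unadjusted p = 0.00519), which did not pass adjustment over all probes (adjusted p = 0.283 by limma). Between 1.5 and 2.0 mm the change was -0.52 (interval -0.95 to -0.10, adjusted p = 0.715 by limma). Thus the call at 2.0 mm alone does not show that the lines differed more there than at 1.0 mm. None of the 6 probes passed for any pair of lengths, against 0.00952% of all probes for 1.5 over 1.0 mm, 0% for 2.0 over 1.5 mm and 0.0523% for 2.0 over 1.0 mm.

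In Mu-inactive anthers A_92_P020405 rose between 1.5 and 2.0 mm, by 0.65 on the log2 scale (SE 0.166, fold 1.57, adjusted p = 0.0355 by limma). The ranges touched, since 1 array at 1.5 mm had 1116 and 1 array at 2.0 mm had 1113. Against 1.0 mm the 2.0 mm arrays did not overlap, with a log2 change of 0.47 that missed the threshold (interval 0.10 to 0.84, adjusted p = 0.0807 by limma). The rise after 1.5 mm lost its call when array 2, 3 or 4 was left out, with adjusted p up to 0.216 by limma, and without the quantile step between arrays (log2 change 0.65, adjusted p = 0.0693 by limma).

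In Mu-active anthers the same probe had means of 968 ± 343, 740 ± 93.6 and 821 ± 203 at 1.0, 1.5 and 2.0 mm (SD, n = 4 each). The log2 change at 2.0 over 1.0 mm was -0.21 (interval -0.74 to 0.32) and at 2.0 over 1.5 mm 0.13 (interval -0.40 to 0.65), neither of which passed. Ordered by mean, its level was lowest in Mu-active anthers at 1.5 mm, then came Mu-active at 2.0 mm, Mu-inactive at 1.5 mm, Mu-active at 1.0 mm, Mu-inactive at 1.0 mm and, highest, Mu-inactive at 2.0 mm. Neighbors in this order overlapped, except for the top pair.

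The other probe of GRMZM2G059308, A_92_P011714, was ON in neither line at any length. Its intensities lay between 73.29 and 89.02 in Mu-active and between 76.01 and 90.2 in Mu-inactive anthers over the 3 lengths, within or below the range of the cutoffs. At 2.0 mm it was well above the local background on 0 arrays in Mu-active and on 1 array in Mu-inactive anthers. What is said of the gene rests on A_92_P020405.

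The maize gene dwarf3 encodes ent-kaurenoic acid oxidase (CYP88A1), the P450 enzyme of the last steps to GA12. Its probe lay close to the cutoff, with 97.1 ± 11.5, 91.6 ± 7.70 and 86.3 ± 7.44 in Mu-active anthers at 1.0, 1.5 and 2.0 mm, against 93.9 ± 13.2, 92.4 ± 8.91 and 89.9 ± 0.869 in Mu-inactive anthers (SD, n = 4 each). It was above the cutoff in 4, 2 and 3 of 4 arrays in Mu-active and in 3 of 4 arrays at each length in Mu-inactive anthers. No comparison of this probe passed a test, and intensities this close to the cutoff, without background subtraction, understate any change of the transcript.

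Of the gibberellin inactivation genes, GRMZM2G022679 fell in the longest anthers of both lines. In Mu-active anthers its intensities were 762.5, 1196, 1347 and 806.8 at 1.0 mm, 947.6, 1068, 715.3 and 574.9 at 1.5 mm, and 384.8, 201, 758.6 and 265.5 at 2.0 mm. In Mu-inactive anthers they were 1847, 1414, 681.4 and 1476 at 1.0 mm, 939.4, 927.7, 1430 and 972 at 1.5 mm, and 612.4, 334.4, 356.5 and 276.8 at 2.0 mm. In both lines every array at 2.0 mm lay below every array at 1.0 mm, by a narrow margin in Mu-active anthers, where 1 array at 2.0 mm stood well above the other 3.

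At 2.0 mm the mean of GRMZM2G022679 was 403 ± 249 in Mu-active and 395 ± 149 in Mu-inactive anthers (SD, n = 4 each). Against 1.0 mm the log2 change was -1.50 in Mu-active anthers (SE 0.394, fold 0.354, adjusted p = 0.0326 by limma). In Mu-inactive anthers it was -1.76 (SE 0.310, fold 0.296, adjusted p = 0.00413 by limma). The fall lay between 1.5 and 2.0 mm in Mu-inactive anthers, with a log2 change of -1.48 (SE 0.310, adjusted p = 0.0166 by limma). In Mu-active anthers that step was -1.19 and missed the threshold (interval -2.06 to -0.31, adjusted p = 0.119 by limma). The step at 1.5 over 1.0 mm was -0.31 in Mu-active (interval -1.19 to 0.56) and -0.28 in Mu-inactive anthers (interval -0.97 to 0.41).

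These calls leaned on single arrays. In Mu-active anthers the change at 2.0 over 1.0 mm kept its direction but passed in 1 of 4 fits with arrays of 1 number left out, with log2 changes of -1.72 to -1.14 and limma adjusted p of 0.0246 to 0.177, and the call was lost without array 1, 2 or 4. In Mu-inactive anthers it passed in 3 of 4 such fits, with -2.03 to -1.54 and limma adjusted p of 0.00865 to 0.054, and was lost without array 4. The Mu-inactive step at 2.0 over 1.5 mm passed in 1 of 4 fits, with limma adjusted p of 0.0295 to 0.104, and was lost without array 2, 3 or 4.

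No difference between the lines passed for GRMZM2G022679. The log2 ratio of Mu-active over Mu-inactive was -0.35 at 1.0 mm (interval -1.21 to 0.50), -0.39 at 1.5 mm (interval -1.24 to 0.47) and -0.09 at 2.0 mm (interval -0.95 to 0.76), and arrays lay on either side of 0 at each length. The wide intervals leave room for a sizeable difference either way. Ordered by mean, the levels at 2.0 mm of both lines came lowest and Mu-inactive anthers at 1.0 mm highest, and each neighboring pair in the order overlapped.

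GRMZM2G051619, also assigned to gibberellin inactivation, varied so much between arrays of 1 length that no change passed a test. In Mu-active anthers its intensities were 2605, 828, 3465 and 2356 at 1.0 mm, 3458, 1574, 1861 and 356.8 at 1.5 mm, and 699, 1670, 341.7 and 587.7 at 2.0 mm. In Mu-inactive anthers they were 4209, 1926, 1720 and 2161 at 1.0 mm, 2580, 5755, 4371 and 935.8 at 1.5 mm, and 3122, 981.8, 627 and 424 at 2.0 mm. Array 4 at 1.5 mm was the lowest of its length in both lines, and array 1 at 2.0 mm the highest of its length in Mu-inactive anthers only.

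Its means were 2314 ± 1098, 1812 ± 1276 and 825 ± 583 in Mu-active anthers at 1.0, 1.5 and 2.0 mm, against 2504 ± 1151, 3410 ± 2100 and 1289 ± 1244 in Mu-inactive anthers (SD, n = 4 each). The log2 change at 2.0 over 1.0 mm was -1.56 in Mu-active (interval -3.13 to 0.01, adjusted p = 0.184 by limma) and -1.30 in Mu-inactive anthers (interval -2.53 to -0.07, adjusted p = 0.141 by limma). These changes are close in size to those of GRMZM2G022679, with a wider spread. The lowest log2 ratio of the lines was -1.02 at 1.5 mm (interval -2.18 to 0.14, adjusted p = 0.572 by limma), with 3 of 4 arrays lower in Mu-active. All neighbors in the order of its levels overlapped.

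The spread itself set the probes apart from one another. The residual SD of the log2 line ratio in the limma fit was 1.15 for GRMZM2G051619 and 0.846 for GRMZM2G022679, at the 98.4 and 96.2 percentile of the 33666 probes that were ON in a line at some length. It was 0.461 for GRMZM2G040397 (85.6 percentile) and 0.292 for A_92_P020405 of GRMZM2G059308 (69.3 percentile), where the median probe had 0.195. The member probes for gibberellin inactivation were thus among the most variable of the ON probes, and the smallest line difference that could pass was larger for them. A dim probe outside the members, annotated to gibberellin inactivation as well, had an SD of the log2 ratio of 0.057, 0.028 and 0.066 at the 3 lengths. The part of probe brightness in these ranks was not tested.

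The brassinosteroid gene GRMZM2G040397 stayed bright throughout, with no change that passed. In Mu-active anthers its intensities were 2932, 1360, 950.4 and 2332 at 1.0 mm, 2149, 2494, 2453 and 1832 at 1.5 mm, and 2635, 2470, 1585 and 1139 at 2.0 mm. In Mu-inactive anthers they were 1637, 1374, 1427 and 1980 at 1.0 mm, 2015, 2988, 2183 and 1229 at 1.5 mm, and 3142, 1875, 2043 and 1468 at 2.0 mm. The lines overlapped at every length, and so did the lengths within each line. The log2 ratio of Mu-active over Mu-inactive was 0.12, 0.14 and -0.15 at the 3 lengths, and its 95% intervals reached no further than -0.62 and 0.61. The log2 change at 2.0 over 1.0 mm was 0.10 in Mu-active (interval -0.61 to 0.82) and 0.37 in Mu-inactive anthers (interval -0.22 to 0.96).

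Counted over the members, few changes with length passed. The study named these genes for changes in anthers up to 1.0 mm, and the dim probes of GRMZM2G059308 and dwarf3 lie near the cutoff. The shares of all probes are thus no like comparison, and the part of this selection in the counts was not tested. In Mu-active anthers 0 of the 6 probes rose and 0 fell at 1.5 over 1.0 mm (2.65% and 3.01% of all probes), again 0 and 0 at 2.0 over 1.5 mm (2.93% and 2.44%), and 0 and 1 at 2.0 over 1.0 mm (6.8% and 7.06%). In Mu-inactive anthers 0 rose and 0 fell at 1.5 over 1.0 mm (5.19% and 6.36%), 1 and 1 at 2.0 over 1.5 mm (5.19% and 5.09%), and 0 and 1 at 2.0 over 1.0 mm (8.69% and 8.78%). GRMZM2G022679 was also the 1 probe of the 6 that at least halved between 1.0 and 2.0 mm with no overlap of the arrays, in both lines, as 1.89% of all probes did in Mu-active and 1.89% in Mu-inactive anthers. With 6 probes, 1 call more or less decides these shares, and the shares of all probes themselves rest on single arrays: with arrays of 1 number left out, the 2378 calls in Mu-active anthers at 1.5 over 1.0 mm became 8 to 2688, and the 7340 calls in Mu-inactive anthers at 2.0 over 1.0 mm became 3317 to 5323. The median log2 change of the 6 probes was -0.20, -0.19 and -0.19 in Mu-active anthers at 1.5 over 1.0, 2.0 over 1.5 and 2.0 over 1.0 mm, and it was -0.0029, -0.03 and -0.03 in Mu-inactive anthers, where the medians of all probes lay between -0.01 and 0.0021.

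**Figure D3:**
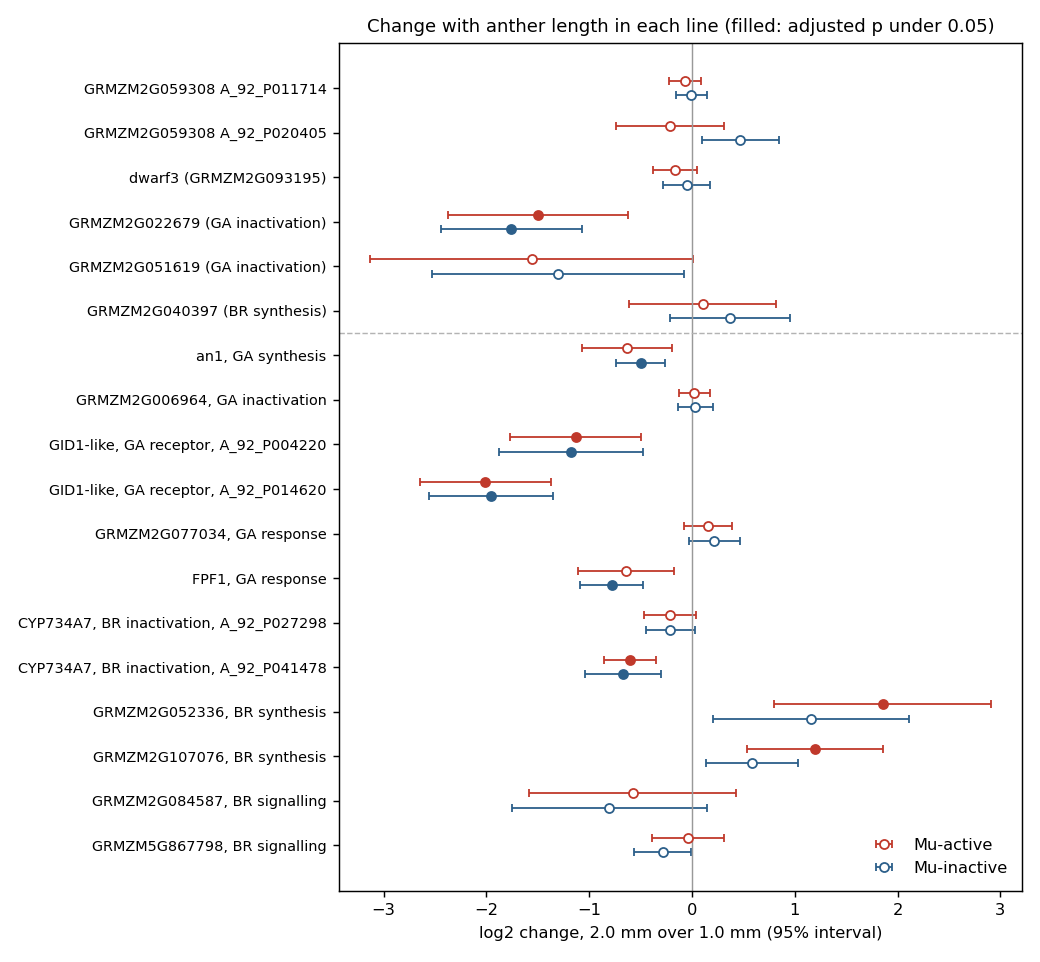
Log2 change in normalized intensity between lengths for the 6 member probes (above the dashed line) and the 12 other pathway probes (below it), Mu-active above Mu-inactive for each probe. Bars are 95% intervals and filled symbols passed at an adjusted p under 0.05 by limma, among them GRMZM2G022679 at 2.0 over 1.0 mm with -1.50 in Mu-active and -1.76 in Mu-inactive anthers.

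No pair of member probes was closely correlated, but the dim probes of GRMZM2G059308 and dwarf3 lie near the cutoff, where a shared pattern could hardly show. Over the 24 channel values, which share arrays in pairs, the highest Pearson r between member probes was 0.565, between the inactivation genes GRMZM2G022679 and GRMZM2G051619. Among the 33666 probes that were ON in a line at some length, that most like GRMZM2G022679 was A_92_P005357 of GRMZM2G078279 (r = 0.856). Most like GRMZM2G051619 was A_92_P032145 of GRMZM2G087827 (r = 0.942), followed by A_92_P035171 of GRMZM2G030099 (r = 0.926). For A_92_P020405 of GRMZM2G059308 it was A_92_P009390 of GRMZM2G113794 (r = 0.802). The closest probe had an r of 0.772 for GRMZM2G040397 and 0.737 for dwarf3, with no gene paired to it here. Each of these values is the highest of a wide search, and what such a search gives for unrelated probes was not tested.

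Beyond the members, 12 probes of 10 further gibberellin and brassinosteroid genes were measured. All 12 were ON in a line at some length, as were 33666 of all 42034 probes. None passed the test between the lines at 1.0, 1.5 or 2.0 mm, where 1, 1 and 0 had an unadjusted p under 0.05, and none passed for a change of the line difference between lengths. With length, more of them passed. In Mu-active anthers 2 rose and 3 fell at 2.0 over 1.0 mm (6.8% and 7.06% of all probes). In Mu-inactive anthers 0 rose and 5 fell (8.69% and 8.78%). These 12 probes could come only from the 7744 probes that the study's supplementary tables pair with a gene model. Several of those tables list transcripts selected for a change or an enrichment in anthers. The shares of all probes are thus no like comparison, and the part of this selection in the counts was not tested. Their median log2 change was -0.40 in Mu-active and -0.39 in Mu-inactive anthers, where the median of all probes was -0.01 in each line.

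The gibberellin receptor candidate GRMZM2G173630, annotated as GID1-like, fell by its pair of probes in both lines. A_92_P014620 had intensities of 2775, 1287, 1401 and 1422 at 1.0 mm, 497.6, 519.6, 418.5 and 695.3 at 1.5 mm and 520.3, 653.8, 276.2 and 288.1 at 2.0 mm in Mu-active anthers. In Mu-inactive anthers it had 1686, 1278, 1650 and 2313 at 1.0 mm, 671, 858.3, 633 and 555.4 at 1.5 mm and 791.6, 412.9, 337.4 and 330.1 at 2.0 mm. In both lines no array at 1.5 or 2.0 mm reached the lowest array at 1.0 mm.

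For A_92_P014620 the log2 change at 2.0 over 1.0 mm was -2.01 in Mu-active (SE 0.286, adjusted p = 0.0023 by limma) and -1.96 in Mu-inactive anthers (SE 0.271, adjusted p = 0.00122 by limma), and both calls held with the arrays of any 1 number left out. At 1.5 over 1.0 mm it was -1.64 in Mu-active (adjusted p = 0.0152 by limma) and -1.34 in Mu-inactive anthers (adjusted p = 0.0142 by limma). The dimmer probe of the gene, A_92_P004220, changed by -1.13 in Mu-active (adjusted p = 0.0276 by limma) and -1.18 in Mu-inactive anthers (adjusted p = 0.0283 by limma) at 2.0 over 1.0 mm. Unlike the other probe it had no call at 1.5 over 1.0 mm, with -0.28 in Mu-active and -0.13 in Mu-inactive anthers.

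A gene of gibberellin synthesis and a gene of gibberellin response also had lower values in longer anthers. The gene an1 (anther ear1, GRMZM2G081554), which encodes an ent-copalyl diphosphate synthase of the first committed step, changed by -0.63 on the log2 scale at 2.0 over 1.0 mm in Mu-active (adjusted p = 0.0618 by limma) and by -0.50 in Mu-inactive anthers (adjusted p = 0.0115 by limma), from intensities not far above the cutoff. Without the quantile step the Mu-inactive call was lost (log2 change -0.15, adjusted p = 0.346 by limma). GRMZM2G019686, annotated as FPF1 of gibberellin signaling, changed by -0.64 in Mu-active (adjusted p = 0.0736 by limma) and fell by 0.78 in Mu-inactive anthers (adjusted p = 0.00426 by limma). At 1.5 over 1.0 mm it passed in both lines, with -0.86 in Mu-active and -0.76 in Mu-inactive anthers.

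Among the brassinosteroid genes, a pair assigned to synthesis rose in Mu-active anthers. GRMZM2G052336, assigned to synthesis, had means of 499, 1719 and 1628 in Mu-active anthers at 1.0, 1.5 and 2.0 mm, against 487, 1116 and 1019 in Mu-inactive anthers (n = 4 each). Its log2 change at 2.0 over 1.0 mm was 1.85 in Mu-active (adjusted p = 0.0294 by limma) and 1.16 in Mu-inactive anthers (interval 0.21 to 2.11, adjusted p = 0.0934 by limma). GRMZM2G107076, assigned to the same pathway, changed by 1.20 in Mu-active (adjusted p = 0.0253 by limma) and 0.58 in Mu-inactive anthers (interval 0.14 to 1.03, adjusted p = 0.0753 by limma). The changes of the line difference over the same lengths did not pass for either gene, so the lines are not shown to differ in these rises.

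GRMZM5G852663, annotated as the P450 enzyme CYP734A7, a family known to inactivate brassinosteroids, fell by 1 of its pair of probes. A_92_P041478 changed by -0.60 in Mu-active (adjusted p = 0.00777 by limma) and by -0.67 in Mu-inactive anthers (adjusted p = 0.0212 by limma) at 2.0 over 1.0 mm, while A_92_P027298 had -0.21 in Mu-active and -0.21 in Mu-inactive anthers and passed in neither. The probes of BRASSINOSTEROID INSENSITIVE 1-associated receptors, GRMZM2G084587 and GRMZM5G867798, passed in no comparison of lengths. Leaving out the arrays of 1 number removed the call in 1 to 3 of 4 fits for each pathway probe that passed at 2.0 over 1.0 mm, except for A_92_P014620.

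**Figure D4:**
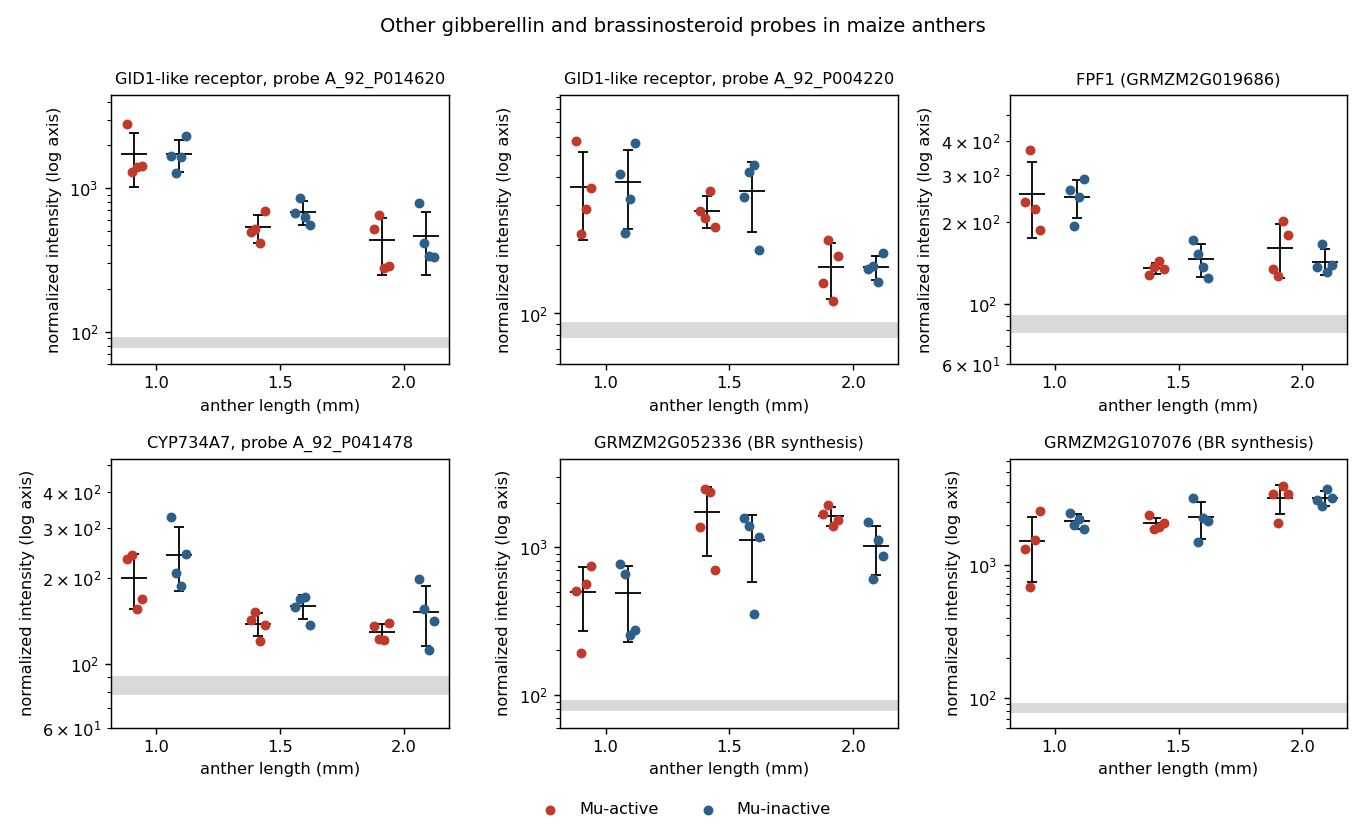
Normalized intensity (log axis, arbitrary units) by anther length in mm for 6 of the named pathway probes outside the members, Mu-active left of Mu-inactive, with points for the 4 arrays, mean ± SD in black and the range of detection cutoffs in grey. A_92_P014620 of the GID1-like gene GRMZM2G173630 has no array at 1.5 or 2.0 mm above 858.3 and none at 1.0 mm below 1278.

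Several genes taken as markers of green tissue, tapetum and meiosis moved with length as well. The study reports that anthers themselves express photosynthesis genes, among them Ssu1 of the green tissue list. Genes of this kind are thus no sure markers of other cells here, and the source of their signal was not tested. The summed intensity of 3 genes of green tissue lay between 5624 and 53640 at 1.0 mm, 10060 and 24510 at 1.5 mm and 49830 and 81470 at 2.0 mm in Mu-active anthers, against 3902 to 6605, 9416 to 25920 and 44100 to 63620 in Mu-inactive anthers. At 2.0 over 1.0 mm 2 of the 3 passed as higher in Mu-active and 3 of 3 in Mu-inactive anthers. The other gene, pcr1, was higher in Mu-active anthers too but missed the threshold (log2 change 1.57, interval 0.269 to 2.875, adjusted p = 0.108 by limma). Ms26, a P450 gene of the tapetum and the 1 tapetum marker used here, rose by 1.21 in Mu-active (adjusted p = 0.032 by limma) and by 0.73 in Mu-inactive anthers (adjusted p = 0.00404 by limma). Its Mu-active arrays at 2.0 mm ran from 155.1 to 474.5, with a median of 165.8. The meiosis gene am1 fell by 0.75 in Mu-active and by 0.72 in Mu-inactive anthers. Other meiosis probes changed less in Mu-active anthers, by -0.32 to 0.04. Of these only A_92_P041561 of spo11-1 passed (-0.22, adjusted p = 0.0416 by limma). In Mu-inactive anthers, the mean of phs1 was 113.1 at 1.0 mm and 109.9 at 2.0 mm. The probes of afd1 went from 167.6 to 121.3 and from 94.83 to 96.97 there, and those of spo11-1 from 192.8 to 176.6 and from 140 to 117.6. The summed intensity of 6 meiosis probes lay between 810 and 989 at 1.0 mm and between 649 and 761 at 2.0 mm in Mu-active anthers. In Mu-inactive anthers it lay between 806 and 1025 at 1.0 mm and between 699 and 792 at 2.0 mm. No marker of these 3 lists passed between the lines at 2.0 mm, while at 1.0 mm the green tissue gene pcr1 was higher in Mu-active anthers by a log2 ratio of 2.03 (adjusted p = 0.0221 by limma). The part of changing cell makeup in the changes of hormone genes with length was not tested.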

How the data were processed

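Two-color Agilent 4x44K arrays of maize anthers were analysed, 4 per length, read by the authors with Feature Extraction. Of the deposited scanner files, the median foreground intensity of each spot (43451 spots per array, linear, not normalized) was used, and the deposited log10 ratio of the software as an alternative. A further table deposited with the series holds the authors' log2 ratios, 1 per probe and length, whose columns had medians of -0.00166, 0.00248 and -0.00328; how it was scaled is not given in the sources used here, and it served to read direction and as an alternative. The supplementary tables were used only to pair probes with gene models (7744 probes, 6833 models, of which 5319 are in the RefSeq table).

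Following the study's methods, no background was subtracted, and intensities were normalized by loess on each array (control spots at weight 0). Between arrays the methods name a quartile method, which was read as quantile normalization across both channels of all arrays; scaling each channel to its upper quartile was an alternative and moves the counts of changes with length. Both used limma 3.58.1 in R 4.3.3. Line differences were fitted with limma on within-array log2 ratios of all 12 arrays, with a coefficient per length and a dye term (8 residual degrees of freedom). Changes with length were fitted on the log2 intensities of 1 line. The p-values were adjusted by Benjamini-Hochberg over 42034 probes, and calls are at an adjusted p under 0.05. Spots with an outlier mark were left out and saturated spots kept. Both lines share each array, so the array is the pairing, and it is in the line fit as the within-array ratio. The limited number of arrays limits the precision.

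The members and lists were chosen with earlier results of these data known. All member probes are named; other pathway genes were taken by gene ID or annotation, and named where they passed the test, at most 8. Of 11 further pathway genes sought by ID, 8 could be paired with a probe. The others could not be paired in the sources used here, although the array may hold probes for them, and were not analysed. Alternatives were other background corrections, normalizations, dye terms, fits, filters, cutoffs and left-out arrays. The fits were tested on simulated data. Figures were drawn with Python 3.11.15 and matplotlib 3.10.9.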

Additional observations from a re-analysis of the deposited data

Results flagged for a closer look

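In 96 sets of 4 arrays, 1 array each stood apart from the other 3 in 4 sets by Dixon's criterion, which chance alone meets in about 1 of 20. A_92_P020405 of GRMZM2G059308 had an intensity of 1482 in array 2 of Mu-active anthers at 1.0 mm, where the other arrays lay between 781.5 and 808.3. GRMZM2G022679 had 1430 in array 3 of Mu-inactive anthers at 1.5 mm, where the others lay between 927.7 and 972. The log2 ratio of Mu-active over Mu-inactive of GRMZM2G040397 at 2.0 mm was 0.398 in array 2, where the others lay between -0.366 and -0.254. A_92_P014620 of the GID1-like gene GRMZM2G173630 had 2775 in array 1 of Mu-active anthers at 1.0 mm, where the others lay between 1287 and 1422.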

How the results depend on the processing

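For A_92_P020405 of GRMZM2G059308 at 2.0 mm, the line difference of -0.77 kept its direction in every setting tried. The adjusted p stayed under 0.05 with normexp background correction, Aquantile, no dye term, marked spots kept and dim probes left out (0.024 to 0.0433 by limma). It did not with the ratio of the scanner software (-0.88, adjusted p = 0.0515 by limma), the 2.0 mm arrays alone (-0.77, adjusted p = 0.164 by limma) or no replicate block, the lines as unpaired channels without the pairing by array (-0.77, adjusted p = 0.142 by limma); in these 3 settings 0 member probes passed. With arrays left out it was -0.92 to -0.66, and 0 member probes passed. Leaving out each single 2.0 mm array was chosen after seeing the data.

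With arrays of 1 number left out, GRMZM2G022679 changed by -1.72 to -1.14 in Mu-active anthers and by -2.03 to -1.54 in Mu-inactive anthers at 2.0 over 1.0 mm, and by -1.76 to -1.30 in Mu-inactive anthers at 2.0 over 1.5 mm. A_92_P020405 in Mu-inactive anthers gave 0.55 to 0.80 at 2.0 over 1.5 mm, and 0.65 without the quantile step (adjusted p = 0.0693 by limma). Member probes that passed then numbered 0 to 1 in Mu-active and 0 to 2 in Mu-inactive anthers at 2.0 over 1.0 mm, and 0 to 2 in Mu-inactive anthers at 2.0 over 1.5 mm.

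Without the quantile step, with each channel scaled to its upper quartile, the median of all probes shifted by 0.483 in both lines at 1.5 over 1.0 mm, and by 0.511 in Mu-active and 0.507 in Mu-inactive anthers at 2.0 over 1.0 mm. Rises then made up 92.7% of calls in Mu-active anthers at 1.5 over 1.0 mm (46.8% with the quantile step), 88.7% at 2.0 over 1.0 mm (49.1%), 90.3% in Mu-inactive anthers at 1.5 over 1.0 mm (44.9%) and 87.2% at 2.0 over 1.0 mm (49.7%). Member calls were 2 in Mu-active anthers and 2 in Mu-inactive anthers at 1.5 over 1.0 mm, 2 in Mu-active and 4 in Mu-inactive anthers at 2.0 over 1.0 mm, and 1 in Mu-inactive anthers at 2.0 over 1.5 mm. GRMZM2G022679 at 2.0 over 1.0 mm was then -1.53 in Mu-active and -1.76 in Mu-inactive anthers, or -2.04 and -2.27 relative to that shift, and A_92_P020405 in Mu-inactive anthers 0.46, or -0.05 relative to it. Pathway probes that passed numbered 7 in place of 3 in Mu-active and 6 in place of 2 in Mu-inactive anthers at 1.5 over 1.0 mm, and 8 in place of 5 in each line at 2.0 over 1.0 mm.

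Over all probes, the 158, 198 and 364 line differences at 1.0, 1.5 and 2.0 mm became 28 to 361, 72 to 290 and 120 to 496 in the other settings and 24 to 48, 10 to 63 and 17 to 66 with arrays left out, where fewer samples were fitted. Changes with length numbered 2378, 2256 and 5825 in Mu-active anthers at 1.5 over 1.0, 2.0 over 1.5 and 2.0 over 1.0 mm, and became 8 to 2688, 218 to 1555 and 1632 to 4677 with arrays left out and 23356, 1410 and 25782 without the quantile step. In Mu-inactive anthers the 4854, 4319 and 7340 became 1216 to 2619, 989 to 2905 and 3317 to 5323 with arrays left out and 25337, 2672 and 27164 without the quantile step.

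Left-out arrays also turned the sign of 12 values that passed no test. Line differences then ran over -0.26 to 0.0084 (A_92_P020405, 1.0 mm), -0.11 to 0.36 and -0.066 to 0.33 (GRMZM2G040397, 1.0 and 1.5 mm), -0.51 to 0.073 (GRMZM2G022679, 2.0 mm) and -0.51 to 0.065 and -0.94 to 0.044 (GRMZM2G051619, 1.0 and 2.0 mm). The change of the line difference of A_92_P020405 at 1.5 over 1.0 mm ran over -0.27 to 0.048. Changes with length ran over -0.0058 to 0.31 (A_92_P020405, Mu-active, 2.0 over 1.5 mm), -0.15 to 0.48 (GRMZM2G040397, Mu-active, 2.0 over 1.0 mm), -0.17 to 0.27 (the same gene, Mu-inactive, 2.0 over 1.5 mm), and for GRMZM2G051619 at 1.5 over 1.0 mm -1.07 to 0.15 in Mu-active and -0.19 to 0.74 in Mu-inactive anthers. Low signal over background limits the dim probes of GRMZM2G059308 and dwarf3.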
